A study of Mus musculus with 6 samples.

Results

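The genes described here make cholesterol, carry it between cells or remove it: Hmgcs1, Sqle, Apoe, Clu, Abca1, Abcg1, Lrp1 and Cyp46a1. They were chosen by name, as every probe set whose only gene symbol in the platform annotation is one of these 8, which gave 19 of 45037 probe sets, and 8 of 18194 annotated genes. Each of 6 Affymetrix arrays measured 1 whole retina from a female DBA/2J mouse. Mice of this inbred strain develop raised intraocular pressure and glaucoma as they age. At 3 months, 3 retinas came from animals with normal pressure, all from left eyes, with a last reading of 17.5 ± 1.99 mmHg. At 8 months, 3 retinas came from animals with elevated pressure, 1 left eye and 2 right eyes, with a last reading of 27.4 ± 2.67 mmHg (SD, n = 3 each). The retinas came from separate animals and no other strain or treatment entered, so age and pressure cannot be told apart.

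Neurons of the retina, like those of the brain, depend on cholesterol that is made locally or delivered in lipoprotein particles secreted by glia. Synthesis begins with the mevalonate steps and is switched on by sterol regulatory element binding proteins (SREBPs) when membrane sterol is low. Apolipoprotein E and clusterin are the main particle proteins, ABC transporters load them with lipid, receptors of the LDL receptor family take them up, and surplus cholesterol leaves neurons as oxysterols.

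All values below are on the authors' log2 scale (GCRMA), where a step of 1 is a doubling, and differences are 8 months minus 3 months. A probe set was tested where the third highest of its 6 values reached 4, which kept 15 of the 19, with at least 1 for each of the 8 genes. The other 4, from Abca1 (2), Lrp1 (1) and Hmgcs1 (1), read between 2.24 and 3.02 in every retina. None of the 15 passed the test between ages (limma, Benjamini-Hochberg adjusted over 20973 probe sets), where 0.00477% of all probe sets tested did. Adjusted p values of the members ran from 0.223 to 0.976. At an unadjusted limma p under 0.05 there was 1 member probe set of 15, from Abcg1, against 14.9% of all tested. The same probe set was the 1 whose ages did not overlap, against 21.8% of all tested. The members' differences had a median of 0.03, and the median over all probe sets tested was -0.04. Of the 15, 9 were higher and 6 lower at 8 months, against 59.4% lower of all tested. After median centring 4 of the 15 were lower, and the median over all probe sets tested was then 0.04. In whole tissue, fewer cells of a type and less RNA per cell cannot be told apart.

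The tissue and its other contents were read from marker genes. Rod arrestin, Sag, lay between 13.884 and 13.905 at 3 months and between 13.804 and 13.875 at 8 months. The Müller glia enzyme glutamine synthetase, Glul, lay between 13.224 and 13.457 and between 13.484 and 13.509, so neither overlapped between ages. Of 8 Müller glia markers 6 were higher and 2 lower at 8 months, with overlapping mean levels of 10.05 to 10.17 and 10.12 to 10.28. Of 6 measured astrocyte markers 3 were higher and 3 lower. Among them Gfap read 4.25 to 4.72 and 4.87 to 5.83, a difference of 1.07 that did not pass. The part of glia in the member levels was not tested. Lens crystallins, of which 9 of 12 listed markers were measured, stood far apart in 3-month retina 3 and 8-month retina 1. Their mean level was 10.10 and 8.83 there. It was 6.07 and 4.53 in the remaining younger retinas, and 4.05 and 4.46 in the remaining older ones. Summed over the list, 3-month retina 1 reached 9.99, against 7.96 in 3-month retina 2 and 7.34 and 7.82 in 8-month retinas 2 and 3. Values below without both crystallin-rich retinas still include 3-month retina 1. Of 12 microglial markers 5 were measured, and all 5 were higher at 8 months without passing. The other 7 include Aif1, Cx3cr1, C1qa, C1qc, P2ry12 and Trem2, which were below the filter. Of 6 blood markers only Slc4a1 was measured, between 3.92 and 4.20.

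**Figure D1:**
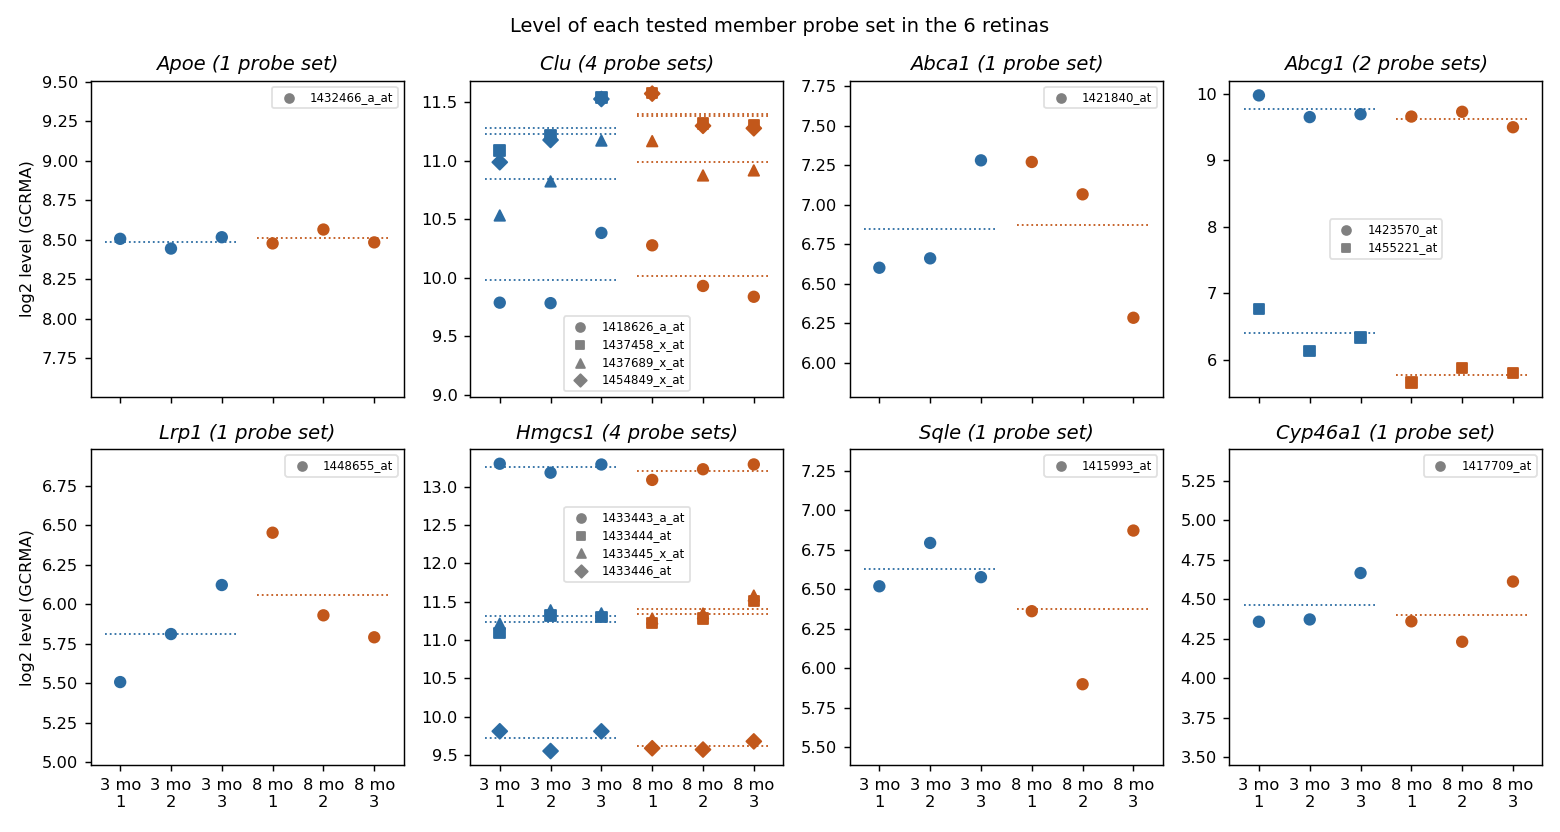
Log2 level (y axis) of the 15 tested member probe sets in each retina (x axis, blue 3 months, orange 8 months, n = 3 each). Symbols mark probe sets, dotted lines the mean of each age, and panels differ in the range of their y axes. Abcg1 1455221_at is the 1 probe set in which the ages do not overlap.

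Hmgcs1 encodes the cytosolic enzyme that makes HMG-CoA, the substrate of the rate-limiting step of the pathway. Its promoter shows the type of element through which sterols act on these genes. The stretch below comes from RefSeq's window of the gene's start, at chr13:119690170-119690232 of GRCm38.p6 on the plus strand, and its 3′ end lies before the annotated start.
Hmgcs1: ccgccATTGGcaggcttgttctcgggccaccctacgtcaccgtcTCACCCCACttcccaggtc
Capitals mark, first, a CCAAT box, which reads ATTGG on this strand, and 34 bases on, a match to the sterol regulatory element TCACNCCAC. The matched element ends 128 bases before the annotated start, and the 2 matches do not overlap. Searched on both strands of 32851 windows of 300 bases (250 before a start and 50 after), TCACNCCAC is found in 1.24% and CCAAT in 37.4%. Windows were found for 5 members, Apoe (3), Abca1, Lrp1, Hmgcs1 and Cyp46a1. Only that of Hmgcs1 holds TCACNCCAC, and CCAAT occurs 4 times there, 1 time in that of Cyp46a1 and in no other. AGGTCA repeated after 4 bases of any kind, the direct repeat bound by liver X receptors, is in 0.0152% of all windows and in none of these. Only this exact repeat was searched, so its absence does not speak to imperfect forms of it. These are matches of letters, not measured binding.

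Neither synthesis gene passed between the ages. The brightest Hmgcs1 probe set, 1433443_a_at, read 13.30, 13.18 and 13.29 at 3 months and 13.09, 13.23 and 13.29 at 8 months, here and below in the order of the retina numbers. The whole spread over 6 retinas was 0.21, and the ages overlapped. Its difference of -0.06 ± 0.09 (SE) had a 95% interval of -0.26 to 0.15, or 0.833-fold to 1.11-fold (limma adjusted p = 0.783). The other 3 tested probe sets of the gene also overlapped between ages, with differences of 0.10 for 1433444_at, 0.09 for 1433445_x_at and -0.11 for 1433446_at. These 4 do not form 1 profile. Across the 6 retinas 1433444_at and 1433445_x_at had a Pearson r of 0.98 with each other, and 1433443_a_at had 0.74 with 1433446_at, but r lay between -0.28 and 0.24 for the other pairs.

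Sqle, which encodes squalene epoxidase, the first oxygen-requiring step, varied more between animals. Its 1 probe set read 6.52, 6.79 and 6.58 at 3 months and 6.36, 5.90 and 6.87 at 8 months. The older retinas held both the lowest and the highest value, in retinas 2 and 3, and enclosed all the younger ones. Only 3.82% of all probe sets tested had a larger SD within ages than the 0.36 of Sqle. The difference of -0.25 ± 0.23 (SE) had a 95% interval of -0.80 to 0.29 (limma adjusted p = 0.621). It was -0.01 without 8-month retina 2 and -0.50 without 8-month retina 3.

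Apoe, whose product is a lipid carrier secreted in the retina mainly by Müller glia, was the most even member. It read 8.51, 8.44 and 8.52 at 3 months and 8.48, 8.56 and 8.48 at 8 months. All 6 retinas lay within 0.12 on the log2 scale, and 95.8% of the probe sets tested had a larger SD within ages. The difference was 0.02 ± 0.08 (SE), with a 95% interval of -0.16 to 0.20, or 0.896-fold to 1.15-fold (limma adjusted p = 0.919). The gene has 1 probe set on this array, of the less specific kind whose suffix (_a_at) marks several transcripts of a gene.

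Clu, the gene of clusterin or apolipoprotein J, a secreted chaperone that also rides on lipoprotein particles, had 4 tested probe sets. Its brightest, 1437458_x_at, read 11.09, 11.22 and 11.54 at 3 months and 11.58, 11.32 and 11.31 at 8 months. The highest value of each age lay in the 2 retinas rich in lens crystallins, 3-month retina 3 and 8-month retina 1. The same held for 1418626_a_at, with 10.38 and 10.28 in those retinas against 9.78 to 9.93 in the other 4. It held as well for 1437689_x_at (11.17 in both, against 10.53 to 10.92) and 1454849_x_at (11.53 and 11.57, against 10.99 to 11.30). The probe sets correlated at r of 0.864 to 0.997 over the 6 retinas, and those of suffix _x_at can share probes or targets, so they are not 4 separate measurements.

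Between ages the Clu probe sets differed by 0.03 to 0.15, all overlapping, with limma adjusted p values from 0.658 to 0.954. Single retinas moved these values. The difference of 1437458_x_at was 0.02 without 3-month retina 1, 0.03 without 8-month retina 1 and 0.25 without 3-month retina 3, and that of 1454849_x_at was 0.03, 0.06 and 0.30. For 1437458_x_at the 95% interval was -0.21 to 0.45. Without both crystallin-rich retinas the 4 differences were 0.10 to 0.22, and the lowest unadjusted limma p was 0.138. The part of lens material in the Clu level of those retinas was not tested.

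Lrp1, the large endocytic receptor that takes up apolipoprotein E particles, followed the same order of retinas as Clu at its ends. It read 5.51, 5.81 and 6.12 at 3 months and 6.45, 5.93 and 5.79 at 8 months, overlapping between ages. Retina 1 was the highest at 8 months and retina 3 the highest at 3 months, and the lowest was 3-month retina 1, as in 3 of the 4 Clu probe sets. The difference of 0.24 ± 0.21 (SE) was the highest among members and did not pass, with a 95% interval of -0.26 to 0.75 (limma adjusted p = 0.604). It was 0.05 without 8-month retina 1 and 0.20 without both crystallin-rich retinas. Within left eyes, where 8-month retina 1 is the only older one, it was 0.64.

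The 2 transporters are described one after the other. Abca1, which lipidates lipid-poor apolipoproteins, read 6.60, 6.66 and 7.28 at 3 months and 7.27, 7.06 and 6.28 at 8 months. Values near 7.3 occurred in the crystallin-rich retina of either age, and 8-month retina 3 was the lowest of all. The difference was 0.03 ± 0.29 (SE), with a 95% interval of -0.65 to 0.71 that leaves changes of 1.6-fold either way within it (limma adjusted p = 0.976). Only 1.49% of all probe sets tested varied more within ages.

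Besides crystallins, pigment cell genes differed between these retinas. Of 10 markers of the retinal pigment epithelium and pigment cells 7 were measured. At 3 months their mean level was 5.14, 6.45 and 7.08, and at 8 months it was 6.75, 6.57 and 5.49. Abca1 was above 7 in the 3 retinas where that mean was highest, and lowest in the 2 where it was lowest, 8-month retina 3 and 3-month retina 1. Summed over its measured genes, the pigment list lay between 9.82 and 11.20 at 3 months and between 10.15 and 10.78 at 8 months. The crystallin list lay between 7.96 and 14.999 and between 7.34 and 14.10. The part of either in the Abca1, Lrp1 and Clu levels was not tested.

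**Figure D2:**
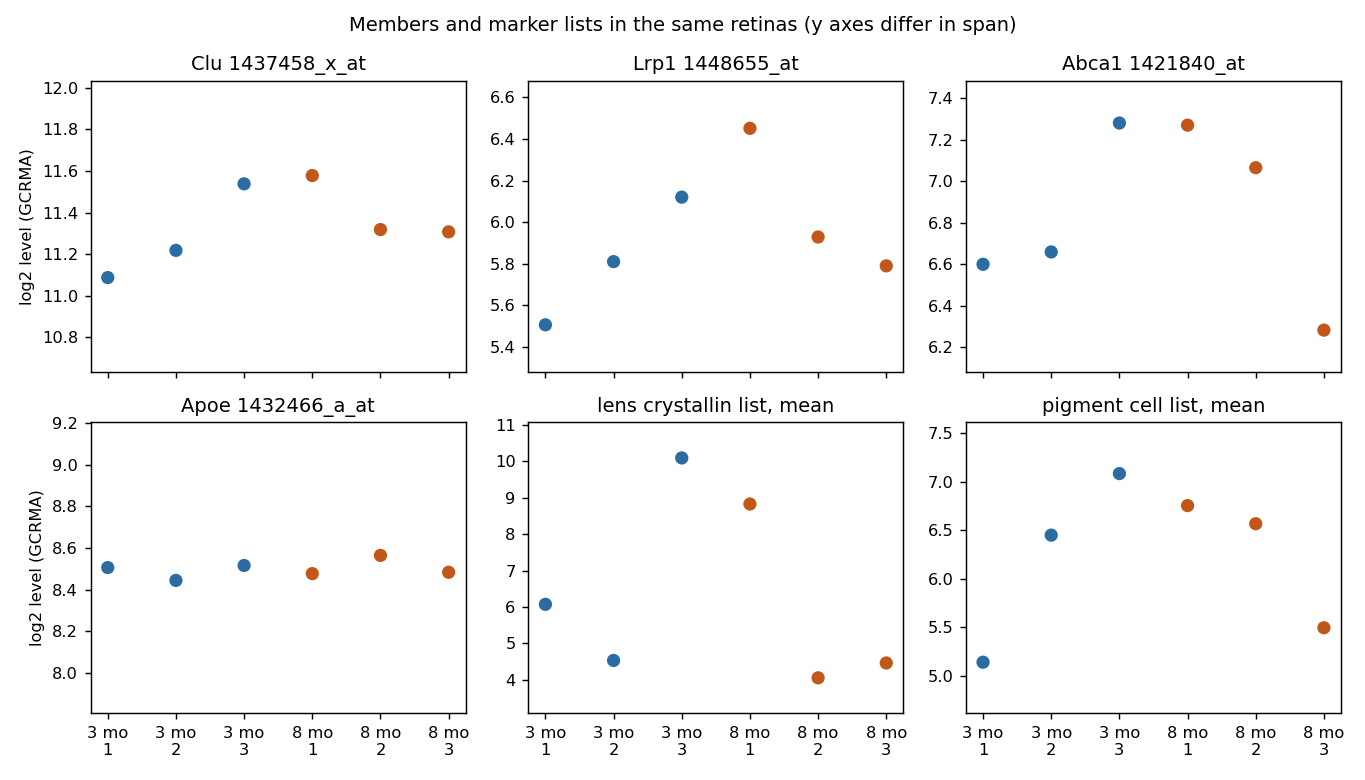
Log2 level of Clu, Lrp1, Abca1 and Apoe and the mean log2 level of the lens crystallin and pigment cell lists (y axes) in the same retinas (x axis, blue 3 months, orange 8 months). Clu, Lrp1 and Abca1 are high in 3-month retina 3 and 8-month retina 1, the 2 retinas with crystallin means of 10.10 and 8.83, whereas Apoe stays within 0.12.

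Abcg1, which moves cholesterol onto particles that already carry lipid, had the lowest p among the members. Probe set 1455221_at read 6.76, 6.13 and 6.33 at 3 months and 5.66, 5.88 and 5.81 at 8 months. Every older retina was below every younger one. The means were 6.41 ± 0.32 and 5.78 ± 0.11 (SD, n = 3), a difference of -0.63 ± 0.16 (SE), or 1.55-fold lower, with a 95% interval of -1.02 to -0.24. It did not pass over all probe sets (limma unadjusted p = 0.00629, adjusted p = 0.223). The adjusted p ran from 0.111 to 0.664 over the alternatives, and the difference from -0.77 to -0.45. Within left eyes the difference was -0.75, resting on 8-month retina 1 as the only older one, which is crystallin-rich and read lowest of all. Without both crystallin-rich retinas it was -0.61.

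The brighter Abcg1 probe set, 1423570_at, gave a smaller difference. It read 9.97, 9.65 and 9.69 at 3 months and 9.65, 9.73 and 9.49 at 8 months, with overlapping ages. The difference was -0.14 ± 0.12 (SE), and its 95% interval of -0.42 to 0.13 overlaps that of 1455221_at (limma adjusted p = 0.571). It was -0.04 without 3-month retina 1, -0.08 without 8-month retina 3 and -0.06 after median centring. The probe sets ranked 3-month retina 1 highest alike and had a Pearson r of 0.79 over the 6 retinas. As a sign of RNA quality, the 3′ minus 5′ log2 signal of the Gapdh control was 0.707 to 0.751 at 3 months and 0.755 to 0.811 at 8 months, without overlap. That of actin overlapped, at 1.62 to 1.87 and 1.71 to 1.84. Mean levels of 4 marker lists also did not overlap between the ages. The 5 measured microglial genes had 5.71 to 5.78 at 3 months and 6.29 to 6.34 at 8 months, with summed levels of 8.99 to 9.05 and 9.59 to 9.97. The 7 of 9 measured vessel genes had 5.80 to 5.95 and 5.62 to 5.65, with summed levels of 9.25 to 9.53 and 9.09 to 9.18 and Pecam1 and Cdh5 below the filter. Ganglion cell genes (10 of 11) stood apart by less, at 8.39 to 8.59 against 8.30 to 8.38. So did rod and cone genes (11 of 12), at 10.88 to 11.03 against 10.81 to 10.87. The summed levels of both lists overlapped between the ages. They were 12.733 to 12.877 and 12.625 to 12.738 for ganglion cell genes, and 15.387 to 15.525 and 15.422 to 15.43 for rod and cone genes. The part of RNA quality or of these cells in the Abcg1 difference was not tested.

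Cyp46a1, the cholesterol 24-hydroxylase by which neurons dispose of sterol, was dim. It read 4.36, 4.37 and 4.67 at 3 months and 4.36, 4.23 and 4.61 at 8 months, close to the level of 4 used as filter. The highest retina of each age was retina 3, and the ages overlapped. The difference was -0.06 ± 0.13 (SE), with a 95% interval of -0.38 to 0.25 (limma adjusted p = 0.837). For so dim a gene GCRMA can understate a difference.

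**Figure D3:**
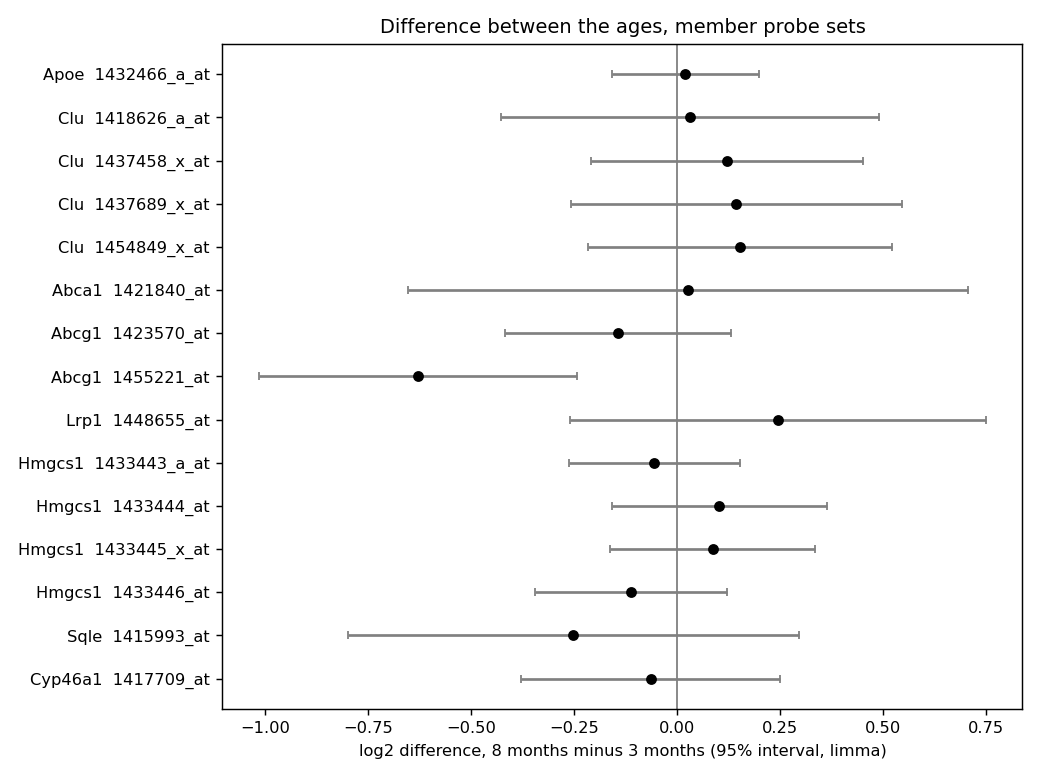
Log2 difference, 8 months minus 3 months (x axis), of each tested member probe set (y axis), with its 95% interval from limma (n = 3 per age). Only the interval of Abcg1 1455221_at, -1.02 to -0.24, leaves out 0 before adjustment, and none passed the adjusted threshold.

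Genes of the other steps gave the setting for the members. Of 76 genes listed over 7 roles, the 8 members included, 60 were tested, each at its brightest probe set, and none passed (limma adjusted p of 0.183 or more), against 0.00891% of 11219 genes taken the same way. Lower at 8 months were 42, or 70% against 63.5% of all genes, and 14 had ages that did not overlap, or 23.3% against 23.0%. After quantile normalization 35 were lower and after median centring 30. The median of all genes was then -0.02 and 0.03, so the 63.5% holds only before rescaling. It is no measure for the 35 and 30, or for the scaled counts by role below. At an unadjusted limma p under 0.05, 11 of the 60 were lower and 0 higher, or 18.3% lower, against 11.5% lower and 3.58% higher of all genes. All 11 were outside the members, with Abcg1 taken at its brighter probe set and not at 1455221_at. The median difference was -0.09 over the 60 and -0.06 over all genes. The split depended on scaling. After quantile normalization 6 were lower and 0 higher, or 10% lower against 7.18% of all genes (5.2% higher), and after median centring 5 were lower and 1 higher, or 8.33% lower against 5.03% (8.54% higher). Without both crystallin-rich retinas 3 were lower and 2 higher, and the 5% lower lay beside 5.13% of all genes (1.9% higher). Apart from Srebf2 and Insig1, the non-member genes named by role below are the 3 of lowest p in each role. That their ages often do not overlap follows in part from this choice.

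Among regulators, 7 of 9 were tested, 6 of them lower, against 63.5% of all genes before rescaling. After quantile normalization 4 were lower and after median centring 3. Of the 7, 3 had an unadjusted limma p under 0.05, all lower, against 11.5% of all genes. That count was 2 after quantile normalization, 2 after median centring and 1 without both crystallin-rich retinas. The shares of all genes were then 7.18%, 5.03% and 5.13%. Srebf1, which encodes an SREBP that mainly drives fatty acid synthesis, read 6.75, 7.05 and 6.98 at 3 months and 6.41, 6.28 and 6.67 at 8 months, a difference of -0.48 ± 0.13 (SE, limma adjusted p = 0.235). Mylip, the ubiquitin ligase that marks the LDL receptor for degradation, lay between 5.58 and 5.60 at 3 months and between 5.17 and 5.38 at 8 months, a difference of -0.35 ± 0.09 (SE, limma adjusted p = 0.223). In both, all older retinas lay below all younger ones. The receptor partner Rxra differed by -0.19. The SREBP of cholesterol synthesis, Srebf2, and the sterol sensor Insig1 differed by -0.00 (0.03 after quantile normalization, 0.08 after median centring) and -0.03 (-0.05 and 0.06), values chosen for mention after they were seen.

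Of the steps up to lanosterol 9 of 11 genes were tested. Of these, 8 were lower (7 and 5 under the same scalings), against 63.5% of all genes before rescaling. The lanosterol synthase gene Lss differed by -0.36 ± 0.13 and Fdps, which makes farnesyl diphosphate, by -0.23 ± 0.10 (SE), both without overlap of ages, while Idi1, the isopentenyl diphosphate isomerase, was 0.28 ± 0.17 higher with overlap. A dimmer Lss probe set differed by -0.02 and a dimmer Idi1 probe set by -0.01. None passed. Of the later steps 9 of 10 were tested and 6 were lower (5 and 5), against 63.5% of all genes before rescaling. There Hsd17b7, a sterol ketone reductase, differed by -0.64 ± 0.20, the sterol isomerase gene Ebp by -0.33 ± 0.15 and the reductase gene Lbr by -0.14 ± 0.08 (SE), none passing. The Hsd17b7 value came from a less specific probe set, and a dimmer one, near 4, differed by -0.01.

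Of the uptake genes 12 of 16 were tested, 10 of them lower (9 and 9 under those scalings), against 63.5% of all genes before rescaling. Lrp4, a relative of Lrp1 known for its role at synapses, had the lowest unadjusted p of the 60, at 8.01, 8.07 and 8.18 at 3 months and 7.63, 7.71 and 7.60 at 8 months. The ages stood apart by more than the spread within either, with a difference of -0.44 ± 0.08 (SE), and it did not pass (limma unadjusted p = 0.00109, adjusted p = 0.183). Its sign was the opposite of that of Lrp1. The lysosomal genes Scarb2 and Npc2 differed by -0.17 and -0.26, neither passing.

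Of the particle genes 10 of 13 were tested, 4 of them lower (4 and 3 under those scalings), against 63.5% of all genes before rescaling. Among the 4 is Apool, at -0.20, whose place in this list rests on its name alone. Apoa1, the main protein of plasma HDL, differed by -0.59 ± 0.20 near the filter, at 4.71 and 4.12, and a further probe set by -0.07. Without both crystallin-rich retinas the first was -0.34. Lpl, lipoprotein lipase, differed by -0.33 ± 0.16, with 7.66 in crystallin-rich 3-month retina 3 against 6.94 to 7.12 in the other 5, and by -0.14 without both crystallin-rich retinas. Apoc1 was 0.22 ± 0.10 (SE) higher near the filter. Of the exporters 6 of 7 were tested and 4 were lower (3 and 3), against 63.5% of all genes before rescaling. Abca3 differed by -0.16, Abca5 by -0.23 (0.30 at a dimmer probe set) and Abca7 by 0.07. Among oxysterol and ester genes 7 of 10 were tested and 4 were lower (3 and 2), against 63.5% of all genes before rescaling. Cyp7b1, an oxysterol hydroxylase, differed by -0.32 ± 0.10 (SE), with ages that did not overlap, while Cyp11a1 differed by 0.12 and the oxysterol-binding protein gene Osbp by -0.11. No gene of these 3 roles passed. The direction of each of the 21 non-member genes named by rule held under all 3 scaling alternatives, but sizes moved. Median centring, which moves the median of all genes from -0.06 to 0.03, took Osbp to -0.03, Lbr to -0.06, Abca3 to -0.08, Scarb2 to -0.09, Rxra to -0.11, Fdps and Abca5 to -0.15, Abca7 to 0.15 and Cyp11a1 to 0.21. Without both crystallin-rich retinas Abca3 was -0.08, Apoc1 0.33 and Cyp11a1 0.02.

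**Figure D4:**
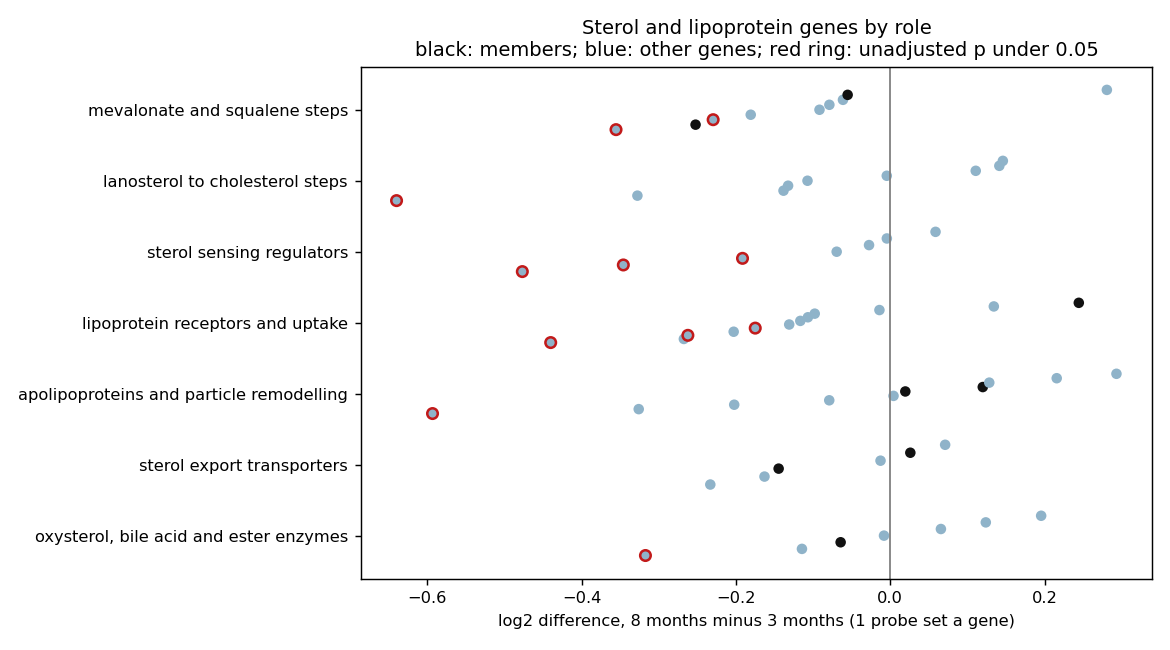
Log2 difference, 8 months minus 3 months (x axis), of the 60 tested sterol and lipoprotein genes by role (y axis), 1 probe set a gene, members in black. Red rings mark an unadjusted limma p under 0.05, which 11 genes reached, all lower at 8 months and none a member. None passed after adjustment.

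The members did not share 1 pattern across the retinas. At their brightest probe sets, Clu and Lrp1 had a Pearson r of 0.95 over the 6 retinas, Abca1 and Lrp1 0.77, and Clu and Abca1 0.75. The synthesis genes Hmgcs1 and Sqle had 0.25, and Apoe and Sqle -0.79. With 6 retinas from 2 ages such values describe these arrays and carry no test.

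Over 11218 other genes at 1 probe set each, the profiles most like that of Clu were those of Asph, Gsn and Nr2f2 (r of 0.998, 0.987 and 0.979). Gsn, the actin-severing protein gelsolin, ran from 5.64 in 3-month retina 1 to 7.56 in 3-month retina 3 and 7.44 in 8-month retina 1. Closest to Lrp1 were Lrrc58, 4930402H24Rik and Gm33409 (0.994, 0.993 and 0.989), and to Abca1 Cep164, Nfib and Airn (0.984, 0.981 and 0.975). Closest to Abcg1, at its brighter probe set, were Alg13, Gpn3 and Rnf111 (0.995, 0.990 and 0.988), and to Hmgcs1 Adam11, Mtch1 and Slc24a4 (0.999, 0.990 and 0.983). Closest to Sqle were Gsg1l, Zfp944 and Ptbp1 (0.990, 0.981 and 0.980), and to Cyp46a1 Ap3m1, Wdr81 and Alkbh2 (0.995, 0.993 and 0.989). For Apoe they were Clpb, Zglp1 and Uevld (0.995, 0.988 and 0.981). The values of Clpb and Zglp1 spanned only 0.0097 and 0.0088 over the retinas. Between 8 genes for Abca1 and 48 for Abcg1 had an r over 0.95, out of 11218. Each member thus had several such genes, and the r values describe these 6 arrays only.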

How the data were processed

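Blood was rinsed off each retina before its RNA was amplified and biotin-labelled, per the labels. The authors deposited 1 log2 value per probe set and array. The submitters' processing notes name GCRMA 1.1.0 and R 1.9.0, and its options are not given in the sources used here. Quantitative PCR on other retinas was not analysed here.

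Of 45101 probe sets, 64 controls were left out and 20973 (46.6%) were tested. Of 45037, 34945 had 1 gene in the annotation, 932 several and 9160 none listed. All 8 member symbols matched the gene table of GRCm38.p6. The test between ages was limma 3.58.1 (lmFit, then eBayes; R 4.3.3), two-sided, with no covariate, Benjamini-Hochberg adjustment over all probe sets tested and a threshold of 0.05. Intervals are moderated 95% intervals of limma. An exact permutation test of 3 against 3 cannot go below 0.1, and the number of arrays limits the precision. The fit was tested on simulated data (3 sets of 20973 probe sets, 200 of them changed). It recovered 28.7% of log2 differences of 0.5, 76.7% of 1 and 98.7% of 2. On average 2.33 unchanged probe sets were called per set. The simulated noise was normal and independent, at the observed residual SD of each probe set. It held no differences between whole arrays such as those in lens content, so recovery in the real data can differ. Named pathway genes were the 3 of lowest p in each role, and profiles were compared by Pearson r over the 6 arrays. Members and lists were chosen with earlier results of these data known. Alternatives were other filters, scalings and variance settings, eye side, the replicate number, single arrays or both crystallin-rich retinas left out, and less specific probe sets left out.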

Additional observations from a re-analysis of the deposited data

How the results depend on the processing

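No member probe set and no pathway gene passed under any of the 16 alternatives, the lowest adjusted p of a member being 0.111 without 3-month retina 2. Over all probe sets 1 passed, against 2 with the filter at 6, after quantile normalization, after median centring (over the probe sets tested) and after cyclic loess, 3 with trend and robust variance, and 0 with no filter, with eye side, with the replicate number as a block, without both crystallin-rich retinas and with any 1 array left out (lowest and highest count 0). At an unadjusted limma p under 0.05 those that gave 0 had 1567 to 4159 probe sets. The replicate block changed no member's call, with Abcg1 1455221_at at -0.63 (limma adjusted p = 0.337). Same-numbered retinas come from different animals and correlated at -0.14, 0.06 and -0.28 in their deviations, so the numbers do not pair them. Of 231 recomputed member differences 21 turned sign, none of them called, and the cause was not tested; 7 of 15 probe sets kept their direction throughout. Hmgcs1 1433443_a_at turned to 0.028 after median centring and 0.018 without both crystallin-rich retinas, and Cyp46a1 to 0.019 and 0.057. With eye side Apoe turned to -0.012, Hmgcs1 1433444_at to -0.012 and 1433445_x_at to -0.036. With single arrays left out, the ranges were -0.009 to 0.035 for Apoe, -0.10 to 0.23 for Clu 1418626_a_at, -0.011 to 0.309 for Clu 1437689_x_at, -0.17 to 0.32 for Abca1, -0.10 to 0.002 for Hmgcs1 1433443_a_at, -0.003 to 0.147 for 1433445_x_at and -0.17 to 0.036 for Cyp46a1. Dim probe sets such as that of Cyp46a1 limit what can be seen.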
